A study of Mus musculus with 10 samples.

Results

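The Notch genes examined here were 3 receptors (Notch1, Notch2 and Notch3), the ligands Dll1 and Jag1, the receptor-modifying enzyme Lfng and 4 target genes (Hes1, Hes5, Hey1 and Nrarp). They were chosen by name, and all 10 were found among the 19965 genes of the array table. Each was read by 1 probe set, the group of probes that together give a value for a transcript. The arrays measured RNA of hippocampal cells from Sox1-GFP heterozygous mice, sorted by flow cytometry into a fraction with high green fluorescent protein (GFP) and a GFP-negative one. The groups were 3 arrays of GFP-negative cells of young mice (7, 7 and 4 months old for replicates 1, 2 and 3), 3 arrays of GFP-positive cells of young mice (7, 5 and 4 months), and 4 arrays of GFP-positive cells of mice aged 1 year 9 months. All mice carried the reporter, no animal was treated, and old GFP-negative cells were not analysed here. Ages are those of the sample titles, while the series text gives 5 to 7 months for the young mice.

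Notch receptors are cell surface proteins that meet Delta and Jagged ligands on neighbouring cells. Binding exposes the receptor to cleavage, first by ADAM proteases at the surface and then by gamma-secretase within the membrane, and the freed intracellular part joins the DNA-binding protein Rbpj to switch on genes such as those of the Hes and Hey repressors. In the adult hippocampus this pathway is known for keeping neural stem cells undifferentiated, and astrocytes and blood vessels use it too.

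Promoter windows of the target Hes5, of Lfng and of the target Nrarp are shown because these genes had higher values in sorted GFP-positive cells and encode parts of the response to Notch or its tuning. They are RefSeq sequences of build GRCm38.p6, from 250 bases before to 50 after the gene start, written 5′ to 3′ on the gene's strand. Capitals mark TGGGAA, the core letters of the site that Rbpj binds, on either strand, with the longer form GTGGGAA where it is present. Hes5 lies at chr4:154960673-154960972 (plus strand), Lfng at chr5:140607091-140607390 (plus strand) and Nrarp at chr2:25180508-25180807 (plus strand).
Hes5: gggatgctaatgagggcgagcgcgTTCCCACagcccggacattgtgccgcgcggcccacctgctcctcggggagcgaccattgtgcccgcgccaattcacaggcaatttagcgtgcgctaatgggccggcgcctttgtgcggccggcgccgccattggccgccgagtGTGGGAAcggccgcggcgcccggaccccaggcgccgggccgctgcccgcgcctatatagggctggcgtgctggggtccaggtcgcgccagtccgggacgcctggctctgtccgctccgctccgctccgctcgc
Lfng: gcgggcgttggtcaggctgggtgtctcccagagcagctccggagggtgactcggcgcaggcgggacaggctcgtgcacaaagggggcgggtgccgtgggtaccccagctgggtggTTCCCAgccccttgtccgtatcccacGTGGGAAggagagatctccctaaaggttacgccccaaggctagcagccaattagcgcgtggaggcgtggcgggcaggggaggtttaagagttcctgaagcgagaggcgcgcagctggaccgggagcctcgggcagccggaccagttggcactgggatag
Nrarp: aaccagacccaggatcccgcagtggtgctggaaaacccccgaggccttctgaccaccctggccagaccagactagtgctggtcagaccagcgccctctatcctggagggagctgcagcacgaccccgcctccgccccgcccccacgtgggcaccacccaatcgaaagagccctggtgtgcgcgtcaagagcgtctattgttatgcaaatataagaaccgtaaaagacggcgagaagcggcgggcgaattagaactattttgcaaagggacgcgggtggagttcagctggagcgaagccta
The Hes5 window held GTGGGAA at 2 places, on the opposite strand from base -226 to -220 and on the gene's own strand from -83 to -77, counted from the gene start with no base 0. In the Lfng window TGGGAA stood on the opposite strand from -135 to -130, and GTGGGAA on the same strand from -109 to -103. The Nrarp window held neither. Of the 10 genes, 8 matched a window (Hes1 and Hey1 did not), and TGGGAA was found in 2 of these 8, Hes5 and Lfng. Among all 32851 windows of the same length, 25.6% held TGGGAA and 6.38% held GTGGGAA, which contains it. CACNAG, the N-box to which Hes proteins bind, was found on either strand in windows of 6 of the 8 genes and in 42.5% of all windows. The 8 genes had 9 windows, because Dll1 had 2, and only 1 of those 2 held CACNAG. These matches describe letters and no measured binding.

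The values are log2 expression by Robust Multichip Average (RMA), a scale on which a difference of 1 is a 2-fold change, and low values may stand for background signal. Array medians lay between 6.54 and 6.66, and precision is limited by having 3 or 4 arrays in a group. The marker genes of the fractions differed widely: in young mice 10 of 10 astrocyte markers were higher in GFP-positive than in GFP-negative cells, and 5 of 8 neural stem and progenitor markers were higher and 1 lower. The mean level of the astrocyte list was 10.39 to 10.81 in the 3 young GFP-positive, 10.59 to 10.77 in the 4 old GFP-positive and 7.34 to 8.15 in the 3 GFP-negative arrays. Microglia (10 of 10 markers), mature oligodendrocyte (8 of 8), oligodendrocyte precursor (6 of 6), endothelial (9 of 10) and mural markers (7 of 10, with 1 higher) were lower in GFP-positive cells. Of 8 neuron markers, 2 were lower and 1 higher. Immediate early genes, which tissue dissociation induces, were lower in GFP-positive cells for 6 of 10, with a median log2 difference of -1.09 and mean levels of 8.31 to 9.52 against 10.19 to 10.33 in GFP-negative cells. The part of any of these lists in the Notch differences between fractions was not tested. The labels call the GFP-positive cells stem and progenitor cells, and the markers show a fraction rich in astrocyte RNA. The mean level of the stem and progenitor list was also higher there, at 7.98 to 8.17 in the young GFP-positive and 7.03 to 7.28 in the GFP-negative arrays. Which of these cells the fraction holds was not tested. The labels give no sex, and old replicate 3 had a level of 11.90 for Xist, a transcript made in female cells, against 4.95 to 5.69 on the other 9 arrays. Ddx3y, a gene of the Y chromosome, read 5.32 there and 9.15 to 9.83 on the other 9. By these levels old replicate 3 was female and the other 9 arrays male, so sex was not balanced between the ages. Both young replicate 1 arrays had high choroid plexus and ependymal markers (7.88 and 8.004, against 5.60 to 6.10 on the other 8). The titles call the replicates biological.

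The sort comparison asked whether Notch genes differed in level between the sorted fractions of young hippocampus. Of the 10 genes, 5 were higher in GFP-positive cells (Notch2, Nrarp, Lfng, Notch1 and Hes5), 1 was lower (Dll1), and 4 did not pass the test (Hes1, Hey1, Notch3 and Jag1). Over all genes 17.0% passed, 7.68% higher and 9.30% lower. An unadjusted p under 0.05 was reached by 8 of the 10, and by 30.4% of all genes. The values of the young groups did not overlap for 6 of the 10 (5 higher and 1 lower), nor for 38.9% of all genes (23.9% higher and 15.0% lower). The median log2 difference of the 10 genes was 0.89, against 0.10 over all genes. The test was limma's moderated test in a fit of all 10 arrays, two-sided, with Benjamini-Hochberg adjustment over all genes at 0.05, and errors of differences are moderated standard errors (SE). In bulk RNA, fewer cells of a type and less RNA per cell cannot be told apart.

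**Figure D1:**
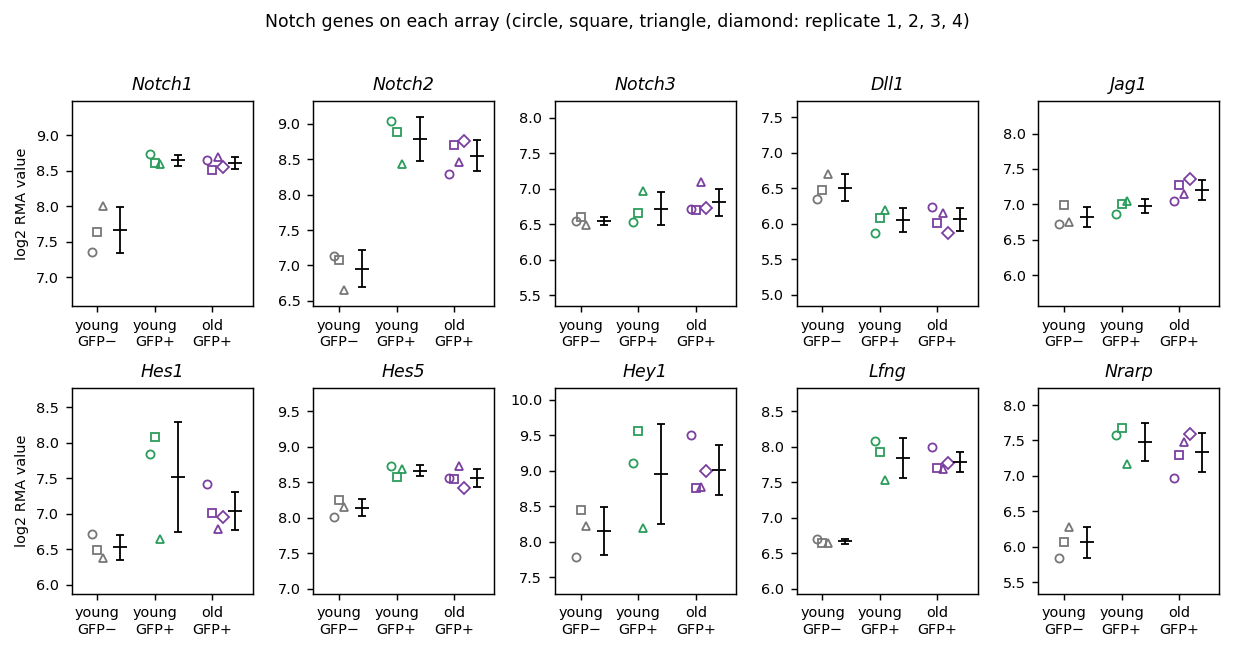
Log2 RMA value of each Notch gene on each array, with 1 panel per gene and groups along the horizontal axis (grey, young GFP-negative, n = 3; green, young GFP-positive, n = 3; purple, old GFP-positive, n = 4). Marker shapes give the replicate number, bars give the mean ± SD, and every panel spans the same height on the log2 scale. Notch1, Notch2, Hes5, Lfng and Nrarp lie higher on all 7 GFP-positive arrays than on any GFP-negative array, and Dll1 lies lower.

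Among the receptors, Notch2, a receptor of neural stem cells and astrocytes, had the largest difference. Its values were 7.14, 7.08 and 6.65 in GFP-negative replicates 1 to 3, 9.03, 8.88 and 8.43 in young GFP-positive replicates 1 to 3, and 8.29, 8.69, 8.45 and 8.75 in old GFP-positive replicates 1 to 4. The GFP-positive arrays of both ages lay together, far above the GFP-negative ones. The young group means were 8.78 ± 0.31 (SD, n = 3) and 6.96 ± 0.26 (SD, n = 3), a log2 difference of 1.83 ± 0.19 (SE), or 3.54-fold with a 95% interval of 2.65 to 4.74 (limma, adjusted p = 5.36e-05). Notch2 was 416th of all genes by p.

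Notch1, the receptor best known for holding stem cells in an undifferentiated state, moved less. It read 7.36, 7.64 and 7.996 in the GFP-negative, 8.73, 8.61 and 8.59 in the young GFP-positive, and 8.65, 8.51, 8.70 and 8.55 in the old GFP-positive arrays. The 7 GFP-positive values fell within 0.22 of each other, while the GFP-negative ones spanned 0.64, with replicate 3 nearest to the GFP-positive cells. The young difference was 0.98 ± 0.15 (SE), or 1.97-fold (limma, adjusted p = 0.000873).

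Notch3, the receptor of pericytes and smooth muscle, read 6.55, 6.602 and 6.49 in the GFP-negative, 6.54, 6.65 and 6.98 in the young GFP-positive and 6.72, 6.70, 7.10 and 6.73 in the old GFP-positive arrays. The young groups overlapped, and young replicate 3 and old replicate 3 were highest. The difference of 0.18 ± 0.15 (SE, 95% interval -0.15 to 0.50) missed the threshold (limma, adjusted p = 0.431). Mural markers, whose median log2 difference was -0.90, had mean levels of 6.75 to 7.57 in the GFP-negative and 6.06 to 6.63 in the young GFP-positive arrays, and their part in the Notch3 value was not tested.

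Of the ligands, Dll1, the Delta ligand that activates Notch on neighbouring cells, was lower in GFP-positive cells. It read 6.34, 6.48 and 6.71 in the GFP-negative, 5.86, 6.09 and 6.19 in the young GFP-positive and 6.23, 6.01, 6.15 and 5.86 in the old GFP-positive arrays. Dll1 was dim, with group means of 6.51 (young GFP-negative), 6.05 (young GFP-positive) and 6.06 (old GFP-positive), below the array medians of 6.54 to 6.66. All 7 GFP-positive values lay below the 3 GFP-negative ones. The difference of -0.46 ± 0.14 (SE) was 1.38-fold lower and close to the threshold (limma, adjusted p = 0.0497). This call was lost without young GFP-negative replicate 2 (adjusted p = 0.110) or 3 (0.130), or without young GFP-positive replicate 1 (0.173) or 2 (0.0971), all in limma.

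Jag1, a Jagged ligand that also activates Notch and is made by astrocytes and endothelium, read 6.73, 6.99 and 6.75 in the GFP-negative, 6.86, 7.00 and 7.05 in the young GFP-positive and 7.05, 7.28, 7.14 and 7.35 in the old GFP-positive arrays. The young groups overlapped and differed by 0.15 ± 0.12 (SE, 95% interval -0.12 to 0.42; limma, adjusted p = 0.431). Each old value lay above each GFP-negative one.

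Lfng encodes Lunatic fringe, which adds a sugar to Notch receptors in the Golgi and so shifts their response towards Delta ligands. It read 6.71, 6.65 and 6.65 in the GFP-negative, 8.08, 7.93 and 7.53 in the young GFP-positive and 7.995, 7.70, 7.68 and 7.77 in the old GFP-positive arrays. The GFP-negative arrays agreed within 0.06, and no GFP-positive array came near them. The young difference was 1.18 ± 0.15 (SE), or 2.26-fold (limma, adjusted p = 0.000194). The other fringe genes had log2 differences of 0.44 (Rfng, adjusted p = 0.0920) and -0.034 (Mfng, adjusted p = 0.877), neither past limma's test.

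Among the targets, Nrarp, which is switched on by Notch and dampens it by binding the intracellular part of the receptor, rose most. It read 5.84, 6.07 and 6.28 in the GFP-negative, 7.58, 7.67 and 7.17 in the young GFP-positive and 6.97, 7.29, 7.47 and 7.59 in the old GFP-positive arrays. The lowest GFP-positive array, old replicate 1, was still above each GFP-negative one. The young difference was 1.41 ± 0.19 (SE), or 2.66-fold (limma, adjusted p = 0.000329).

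Hes5, a repressor that holds back neuronal differentiation, read 8.02, 8.26 and 8.16 in the GFP-negative, 8.73, 8.58 and 8.69 in the young GFP-positive and 8.56, 8.55, 8.73 and 8.42 in the old GFP-positive arrays. Its groups were tight: the SD within groups was 0.11, and 12.04% of all genes had a lower one. The difference of 0.52 ± 0.12 (SE), or 1.44-fold, passed the test (limma, adjusted p = 0.00978). It was lost without both 4-month-old arrays (adjusted p = 0.0525) and without both young replicate 1 arrays (adjusted p = 0.133).

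Hes1, a related repressor that also responds to other signals, read 6.71, 6.49 and 6.37 in the GFP-negative, 7.84, 8.09 and 6.64 in the young GFP-positive and 7.42, 7.01, 6.78 and 6.95 in the old GFP-positive arrays. Young GFP-positive replicate 3 fell within the GFP-negative range and the other young replicates far above it. The difference of 0.995 ± 0.31 (SE, 95% interval 0.31 to 1.68) just missed the threshold (limma, adjusted p = 0.0502). It passed in 1 of 6 fits that each left out 1 young array, the one without young GFP-positive replicate 3 (1.44; limma, adjusted p = 0.00047). In the other 5 it was 0.71 to 1.09, lowest without young GFP-positive replicate 2 (limma, adjusted p = 0.165).

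Hey1, a Hes-related repressor of stem cells and endothelium, behaved alike. It read 7.78, 8.44 and 8.23 in the GFP-negative, 9.11, 9.57 and 8.19 in the young GFP-positive and 9.51, 8.76, 8.77 and 9.00 in the old GFP-positive arrays. Again young GFP-positive replicate 3 lay among the GFP-negative values. The difference of 0.81 ± 0.32 (SE, 95% interval 0.098 to 1.51) did not pass (limma, adjusted p = 0.117), and without that array it was 1.19 (limma, adjusted p = 0.0108). Without young GFP-positive replicate 2 it was 0.50 (limma, adjusted p = 0.323), and it passed in 1 of the 6 fits that left out 1 young array.

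**Figure D2:**
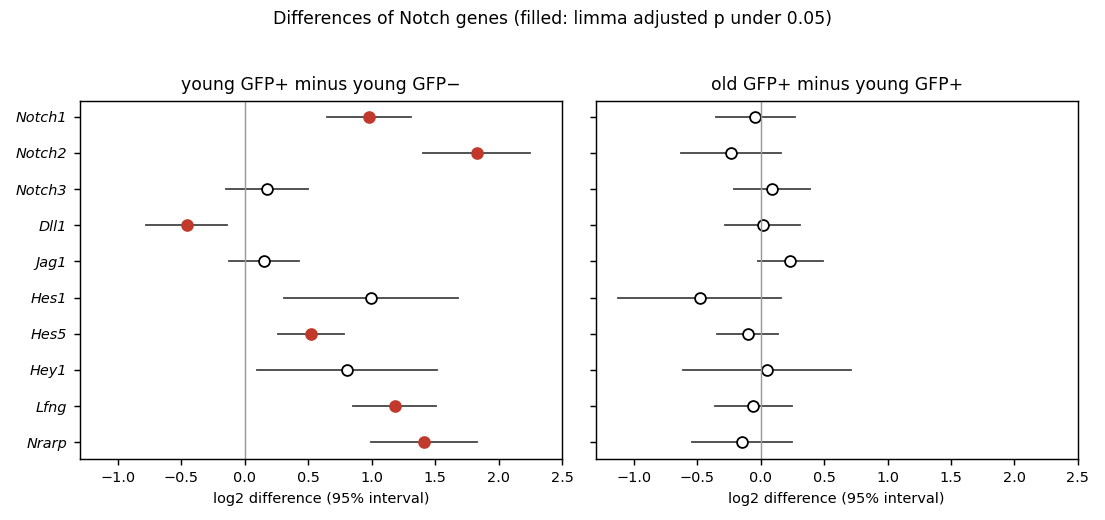
Log2 difference (point) and 95% interval (line) of each Notch gene for young GFP-positive minus young GFP-negative cells (left) and old minus young GFP-positive cells (right), on the same horizontal scale. Filled points passed limma's test: 6 of 10 genes on the left and 0 of 10 on the right.

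Hes1 and Hey1 varied more than most genes within groups. Their within-group SDs were 0.46 and 0.48, above those of 95.2% and 95.8% of genes, where the median gene had 0.19. Over the 7 GFP-positive arrays Hes1 spanned 1.445, Hey1 1.37 and Lfng 0.55. For all 3 genes the highest values were those of young replicates 1 and 2 and old replicate 1, and the lowest was that of young replicate 3. Notch1 and Hes5 had no such order, with young replicate 3 in places 5 and 3 of 7, counted from the highest. For Notch2 and Nrarp it was in place 6 of 7.

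Young GFP-positive replicate 3, from a mouse aged 4 months, also had the lowest mean level of the astrocyte list (10.39, against 10.59 to 10.81 on the other 6 GFP-positive arrays). Its microglia list (6.62, against 5.93 to 6.29) and its mature oligodendrocyte list (8.68, against 7.65 to 8.23) were the highest of the 7. Immediate early genes had a mean level of 8.84 there, 8.31 and 9.52 in young replicates 1 and 2, and 8.42, 8.19, 7.68 and 7.93 in old replicates 1 to 4. The part of these lists in the Hes1, Hey1 and Lfng values was not tested, and the age of 4 months and the array cannot be told apart.

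**Figure D3:**
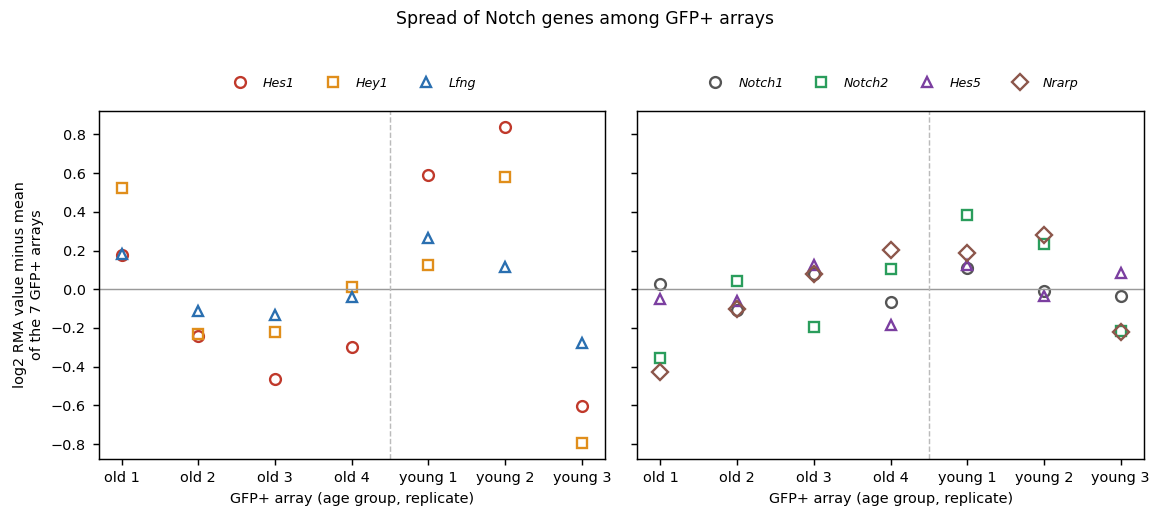
Log2 RMA value of 7 Notch genes on each GFP-positive array, minus the gene's mean over the 7 GFP-positive arrays (left, Hes1, Hey1 and Lfng; right, Notch1, Notch2, Hes5 and Nrarp). The dashed line parts the 4 old from the 3 young arrays. Hes1, Hey1 and Lfng are lowest in young replicate 3, and Notch1 and Hes5 stay within 0.31 over the 7 arrays.

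The age comparison asked whether Notch genes of GFP-positive cells differed between mice of 1 year 9 months and young mice. None of the 10 did by limma at an adjusted p under 0.05, and none had an unadjusted p under 0.05. Over all genes 0.0150% passed (3 genes, none of them a Notch gene) and 10.2% had an unadjusted p under 0.05. No Notch gene had groups without overlap, where 10.9% of all genes did (6.85% higher and 4.06% lower). The median log2 difference of the 10 genes was -0.050, against 0.053 over all genes.

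Jag1 came nearest, at 0.23 ± 0.12 (SE, 95% interval -0.023 to 0.49; limma, adjusted p = 0.521), with old replicate 1 at the level of young replicate 3. Hes1 had a difference of -0.48 ± 0.29 (SE, 95% interval -1.12 to 0.16; limma, adjusted p = 0.575), and its interval allows a fall of more than 2-fold. Single arrays moved the Hes1 value widely, to -0.92 without young GFP-positive replicate 3 and to -0.20 without young GFP-positive replicate 2. Intervals were narrower than that of Hes1 for Notch1 (-0.041, 95% interval -0.35 to 0.27), Hes5 (-0.10, 95% interval -0.34 to 0.14) and Lfng (-0.059, 95% interval -0.36 to 0.24). So were those of Dll1 (0.015, 95% interval -0.28 to 0.31) and Notch3 (0.090, 95% interval -0.21 to 0.39). For Notch2 (-0.23, 95% interval -0.63 to 0.16), Nrarp (-0.14, 95% interval -0.54 to 0.25) and Hey1 (0.050, 95% interval -0.61 to 0.71) the test was not passed either. A missed threshold does not show that the ages were alike. The sign of Notch3 turned without old replicate 3 (-0.0052) or young GFP-positive replicate 1 (-0.0022), and the signs of Notch1, Lfng and Dll1 turned under quantile normalization. Immediate early markers were lower in old cells at a median of -0.72, with 1 of 10 past the test. Mature oligodendrocyte markers had a median of -0.51 and choroid plexus and ependymal markers of -0.67, with none past the test. The other marker lists had medians of -0.14 to 0.027. The part of these lists in the Hes1 value was not tested.

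Old GFP-positive cells were also set against young GFP-negative cells, a comparison in which age and sort fraction cannot be told apart and which shares its arrays with both others. Of the 10 genes, 7 were higher (Notch2, Nrarp, Lfng, Notch1, Hes5, Jag1 and Hey1) and 1 lower (Dll1), where 38.0% of all genes passed, 22.8% higher and 15.2% lower. At an unadjusted p under 0.05 the share of all genes was 50.8%. The groups did not overlap for any of the 10 genes (9 higher and 1 lower), nor for 45.8% of all genes (29.8% higher and 16.0% lower). Notch2 differed by 1.59 ± 0.18 (SE), Nrarp by 1.27 ± 0.18, Lfng by 1.12 ± 0.14 and Notch1 by 0.94 ± 0.14, with limma adjusted p from 6.62e-05 to 0.00054. Hes5 (0.42, adjusted p = 0.0140), Jag1 (0.38, adjusted p = 0.0264), Dll1 (-0.44, adjusted p = 0.0257) and Hey1 (0.86, adjusted p = 0.0443) passed with smaller margins. Hes1 (0.51, adjusted p = 0.171) and Notch3 (0.27, adjusted p = 0.137) did not pass limma's test. The count of 8 fell to 5 without old replicate 2 or 4, without young GFP-negative replicate 1 or 3, or without both young replicate 1 arrays. Hey1 lost its call whichever array of the 7 compared was left out.

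By level, the order of groups was young GFP-positive, old GFP-positive and young GFP-negative for Notch1, Notch2, Lfng, Hes1, Hes5 and Nrarp. It was old GFP-positive, young GFP-positive and young GFP-negative for Notch3, Jag1 and Hey1. For Dll1 the young GFP-negative group came first. For each of the 10 genes the values of the old and young GFP-positive groups overlapped, and 0 of the 10 passed limma's test between them.

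The rest of the pathway was read through a list of 59 further genes in 7 roles, of which 55 were measured. In the sort comparison 11 of the 55 passed, 6 higher and 5 lower, or 20.0%, near the 17.0% of all genes. Their median log2 difference was 0.12, against 0.10 over all genes. The count rested on single arrays: it was 2 without young GFP-negative replicate 1, 5 without young GFP-negative replicate 2, and 7 without young GFP-positive replicate 1 or 3.

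Both surface proteases that make the first activating cut, Adam10 (-0.89 ± 0.24, SE, adjusted p = 0.0264) and Adam17 (-0.93 ± 0.23, SE, adjusted p = 0.0150), were lower in GFP-positive cells (limma), as 2 of 8 measured cleavage genes. The gamma-secretase members Psen2 (0.12, adjusted p = 0.536) and Ncstn (-0.19, adjusted p = 0.472) did not pass. Adam10 lost its call without any 1 of 5 of the 6 young arrays, and Adam17 without young GFP-negative replicate 1 or 2 or young GFP-positive replicate 3.

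Of the 12 endocytosis and ubiquitin ligase genes 6 passed, against 17.0% of all genes, and without young GFP-negative replicate 1 only Dtx3 of these 6 did. Higher were Mib1 (0.47 ± 0.12, SE, adjusted p = 0.0220), a ligase that lets ligands pull on the receptor, Dtx1 (0.59, adjusted p = 0.0217), a Deltex ligase and known Notch target, and the related Dtx3 (0.85, adjusted p = 0.000903). Lower were Numb (-0.75, adjusted p = 0.0142), which antagonises Notch, Itch (-0.80, adjusted p = 0.0188), a ligase that marks Notch for turnover, and Fbxw7 (-0.94, adjusted p = 0.0180), which marks the freed Notch intracellular part for degradation (all limma). Of these, Dtx3 kept its call under every alternative run, and each of the others lost it without at least 1 array.

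In the nuclear complex 1 of 12 genes passed, the Groucho corepressor Tle4 (0.76 ± 0.19, SE; limma, adjusted p = 0.0174), which missed the threshold without GFP-positive replicate 1 or 2 or GFP-negative replicate 3 of the young arrays. Among 6 proneural factors, which Hes proteins repress, Neurog2 (0.68 ± 0.18, SE, adjusted p = 0.0250) and Neurod4 (0.97 ± 0.29, SE, adjusted p = 0.0404) were higher in GFP-positive cells by limma, and both calls were lost without young GFP-negative replicate 1 or 2. Neurod4 was dim, with group means of 4.08 and 5.05 below the array medians. Its difference was 0.54 without young GFP-positive replicate 3, and it lost its call under quantile normalization (0.82; limma, adjusted p = 0.0702). Of 6 other Hes and Hey factors, 6 differed upward, as did 12410 of all 19965 genes. None of the 6 passed limma's test, with Heyl nearest (0.38, adjusted p = 0.0529). The other receptors and ligands had 0 of 6 past the test, with the ligand-like Dner (0.42; limma, adjusted p = 0.165) having the smallest p, and the Fringe and sugar-adding enzymes 0 of 5.

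**Figure D4:**
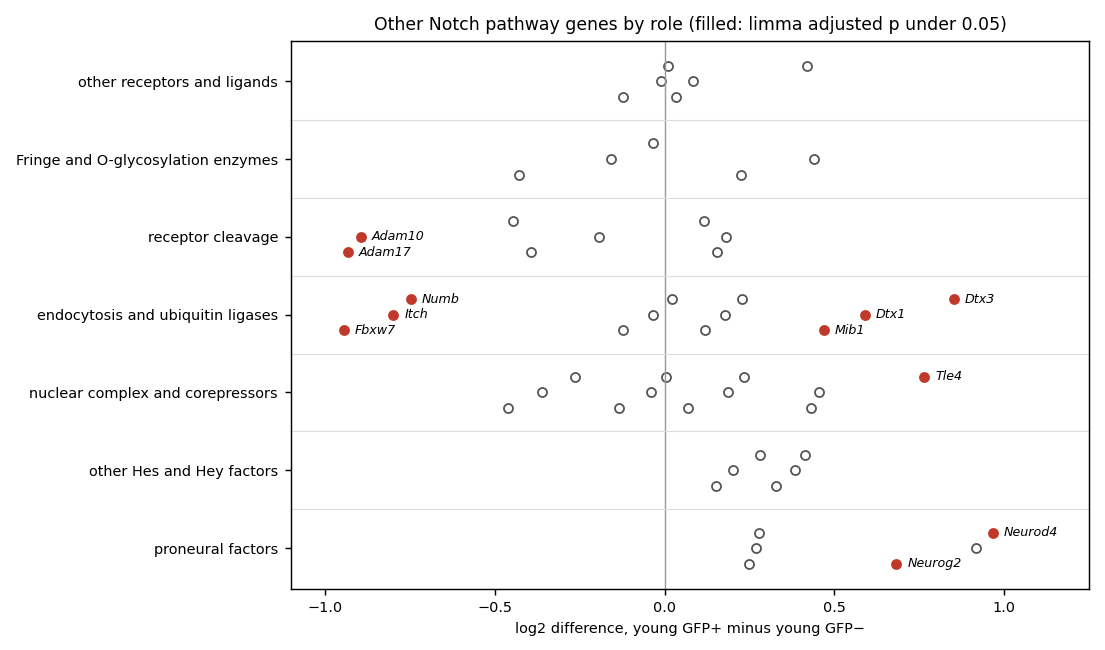
Log2 difference between young GFP-positive and young GFP-negative cells (horizontal axis) for 55 further Notch pathway genes, 1 point per gene, by role (vertical axis, with points offset for legibility). Filled, named points are the 11 genes that passed limma's test, 6 of them in the group of endocytosis and ubiquitin ligases.

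By age, 0 of the 55 genes passed limma's test, and 6 had an unadjusted p under 0.05 (10.9%, against 10.2% of all genes). They were Numb (-0.53), Aph1c, a gamma-secretase subunit (0.49), Neurod4 (-0.80), Dtx3 (-0.35), the corepressor Spen (0.27) and the sugar-adding enzyme Eogt (-0.38), with limma adjusted p from 0.346 to 0.481, and Spen is named after its value was seen. Aph1c has the near-identical copy Aph1b, so its value is uncertain. Between old GFP-positive and young GFP-negative cells 19 of 55 passed, 12 higher and 7 lower, or 34.5% against 38.0% of all genes, and 7 without young GFP-negative replicate 1. Those called here and not between the young fractions were Eogt (-0.53), Furin (-0.44), Aph1c (0.64), Maml2 (0.59), Snw1 (-0.36), Hes3 (0.40), Hes7 (0.44), Heyl (0.38), Neurog1 (0.49) and Atoh1 (0.45), with limma adjusted p from 0.0107 to 0.0401. Quantile normalization ended the calls of 5 of these 10, giving Eogt -0.37, Snw1 -0.15, Hes3 0.25, Neurog1 0.30 and Atoh1 0.28. Whether the comparisons differ in these genes was not tested.

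Genes with the profile most like that of a Notch gene were sought over all 10 arrays, by the root mean square difference of log2 values after each gene was centred on its own mean. They were sought for the 5 Notch genes whose SD over the 10 arrays was at least 0.5. Lfng lay nearest to Tulp3 (0.074) and Fars2 (0.081), Nrarp to Mt3 (0.092) and Pde8b (0.16), and Notch2 to Sdc4 (0.13) and Paqr8 (0.15). Hes1 lay nearest to Retsat (0.15) and Ak7 (0.25), and Hey1 to Arsk (0.22) and Abcd3 (0.23). With 10 arrays and a large sort difference, many genes share such a profile.

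**Figure D5:**
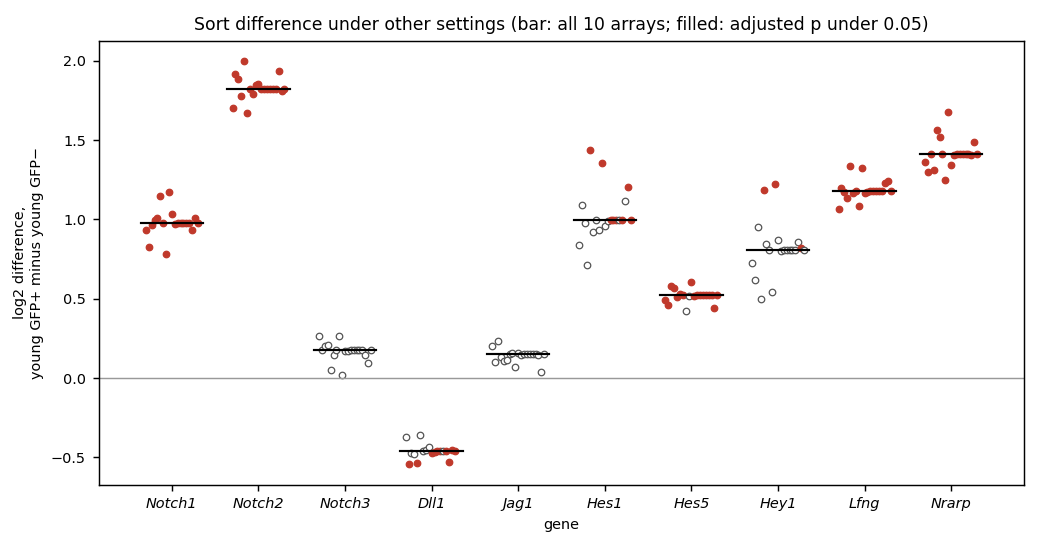
Log2 difference between young GFP-positive and young GFP-negative cells for each Notch gene under the alternative settings (points; filled where the adjusted p was under 0.05) and with all 10 arrays as reported (bar). Notch1, Notch2, Lfng and Nrarp are filled throughout, whereas Dll1, Hes1, Hes5 and Hey1 cross the threshold.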

How the data were processed

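Expression was measured on 10 Affymetrix Mouse Gene 1.0 ST arrays. The deposited table holds log2 values that the authors made with RMA, per the submitters' processing notes, which subtracts background, gives the arrays' probes 1 distribution and summarises each probe set. Per the series description, probes were regrouped by RefSeq transcript (mm9) and 1 array of a young mouse was left out. The RMA version was not stated. On this scale the change of a weakly expressed gene is compressed, and no detection calls were used.

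Of 31672 probe sets, 24590 matched 1 symbol of a RefSeq table (GRCm38.p6, names only) and 7082 matched none. The brightest of a gene's probe sets stood for it. Groups came from titles. The submitters' text names SAM, which was not run. limma 3.58.1 in R 4.3.3 fitted 3 group means over 10 arrays (7 residual and 4.07 prior degrees of freedom) and was tested on simulated data. Figures used matplotlib 3.10.9.

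The Notch genes, pathway list, markers and alternatives were chosen with earlier results of these data known. Pathway genes are named where they passed in any comparison, and otherwise the 1 with the smallest p of each role. Psen2, Ncstn, Rfng, Mfng, Spen, Rbpj and Hey2 were named after their values were seen. Same-numbered young arrays of the sorted fractions deviated together with correlations of 0.12, 0.021 and 0.19 for replicates 1, 2 and 3. Replicates 1 and 3 correlated best with their own number and have the same age in both fractions, and replicate 2 has neither trait. Old and young arrays cannot share a mouse. Same-numbered ones correlated at -0.018, -0.067 and 0.22 (young GFP-positive) and at 0.023, 0.046 and 0.12 (young GFP-negative). Correlations of this size therefore cannot tell whether a mouse was shared. The labels do not say whether same-numbered arrays share a mouse, so the main fit did not pair them.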

Additional observations from a re-analysis of the deposited data

Results flagged for a closer look

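Of 34 genes looked at among the 4 old GFP-positive arrays, 3 had an array far from the other 3. Chance alone would flag about 1 gene in 20, but Rbpj and Hey2 joined the 34 after their values were seen. The count of 3 is therefore not set against that rate. Notch3 read 7.10 in old replicate 3 and at most 6.73 in the others. Old replicate 3 is the array with the high Xist level (11.90), which young GFP-positive replicate 3 (6.98 for Notch3) lacked. Mib1 read 8.67 in old replicate 1 and at least 8.96 in the others. Hey2, a Hes-related factor looked at after its values were seen, read 8.93 in old replicate 1 and at most 6.69 in the others. The cause of none of these was tested.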

How the results depend on the processing

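In the sort comparison Notch1, Notch2, Lfng and Nrarp kept their direction and their call under all 19 alternatives, with log2 differences of 0.78 to 1.17, 1.67 to 1.999, 1.06 to 1.34 and 1.249 to 1.67. Hes5 lost its call in 2 alternatives and Dll1 in 8 of 18 (being absent when the dimmest 50% of genes were left out), while Hes1 gained a call in 8 and Hey1 in 3. Array weights passed Hes1 (adjusted p = 0.00349) and Hey1 (0.0407). The number of Notch genes past the test was 5 to 8 when 1 array was left out.

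The count of 11 further pathway genes was 2 to 11 with 1 array left out, 1 without both young replicate 1 arrays and 18 with array weights. Between old GFP-positive and young GFP-negative cells the 8 Notch genes became 5 to 7 with 1 array left out and 5 without both young replicate 1 arrays, and the 19 further genes became 7 to 19 and 5. The causes were not tested. By age 0 Notch genes and 0 further genes passed under any alternative.

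Small age differences changed sign without passing the test. With 1 array left out, the age difference ranged from -0.073 to 0.0036 for Notch1, -0.0052 to 0.22 for Notch3, -0.076 to 0.088 for Dll1, -0.33 to 0.36 for Hey1 and -0.22 to 0.057 for Lfng. It kept its sign for Hes1 (-0.92 to -0.20), Notch2 (-0.41 to -0.11) and Nrarp (-0.30 to -0.023). Jag1 (0.18 to 0.29) and Hes5 (-0.16 to -0.055) kept theirs too. Without young GFP-positive replicate 1, alone or with GFP-negative replicate 1, Notch1 had 0.0036, Notch3 -0.0022, Dll1 -0.076 and Lfng 0.057. Quantile normalization gave Notch1 0.051, Dll1 -0.039 and Lfng 0.013, and median centring gave Dll1 -0.0016. Hey1 had -0.33 without both 4-month-old arrays and -0.20 with array weights.

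With the replicate number as a block, 7 Notch genes passed between the young fractions (Hes1 gained, adjusted p = 0.0334), 0 by age and 7 between old GFP-positive and young GFP-negative cells (Hey1 lost, adjusted p = 0.0728), and 11, 0 and 20 further genes. The block joined old and young arrays of the same number, which come from different mice, so it is not a pairing by mouse. Its young replicate 2 arrays differ in age between the fractions. The young arrays of replicates 1 and 3 correlated best with their own number, and those of replicate 2 did not. Old and young GFP-positive arrays numbered 3, which cannot share a mouse, correlated at 0.22.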

Other observations

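Rbpj, the DNA-binding partner through which all Notch receptors act, was read by 3 probe sets that did not behave alike. The brightest, used above, ranged from 7.02 in old replicate 1 to 10.96 in old replicate 3, with an SD within groups of 1.199, against 0.19 for the median gene. The other probe sets had within-group SDs of 0.27 and 0.32. Their group means were 7.71, 7.36 and 7.76 for the first and 6.43, 6.70 and 6.77 for the second, in the order young GFP-negative, young GFP-positive and old GFP-positive. The log2 difference of the brightest one between the young fractions, -0.46 ± 0.78 (SE), did not pass limma's test (adjusted p = 0.707).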
